A study of Mus musculus with 21 samples.

Results

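The numbered GPR genes are G-protein coupled receptors (GPCRs) that carry a number in place of a ligand, mostly because the ligand was unknown when the gene was named. They were taken as every gene whose symbol is Gpr followed only by digits, which gave 86 of the 35266 genes counted. The libraries were RNA-Seq of fluorescent neurons sorted by hand from the hypothalamic arcuate nucleus of male mice on a C57BL/6J background, with 1 mouse per library and 21 mice in all. AGRP neurons came from NPY-hrGFP mice, in which the Npy promoter drives the fluorescent protein, and POMC neurons from Pomc-GFP mice, so each cell type was seen in 1 reporter line and the line cannot be told apart from the cell type. Fed mice (AGRP, n = 5; POMC, n = 5) had food ad libitum, and food-deprived mice (FD; AGRP, n = 6; POMC, n = 5) had water alone for 24 h, with ages of postnatal day 46 to 56 across the groups.

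AGRP neurons drive feeding and become more active in energy deficit, whereas POMC neurons restrain feeding. Most numbered GPRs belong to the rhodopsin-like class, others are adhesion receptors with large extracellular domains (since renamed Adgr) or class C receptors related to the metabotropic glutamate receptors. Some of them, such as Gpr3, Gpr6 and Gpr12, raise cAMP through the stimulatory G protein Gs without an added ligand, so that their abundance alone can set the tone of the pathway.

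Libraries held 9822298 to 37663979 counts on genes, and 3 counts, taken as the floor, equalled 0.0797 to 0.305 CPM (counts scaled to library size). This floor covers counting error only, because amplified reads without molecular identifiers are not independent molecules. Summed Agrp and Npy lay between 12064 and 68921 TPM (a level per transcript length, scaled to the same total in each library) in AGRP neurons and at most 226 TPM in POMC neurons, and summed Pomc and Cartpt between 8809 and 37160 TPM in POMC neurons and at most 227 TPM in AGRP neurons. The 18 markers of astrocytes, oligodendrocytes, oligodendrocyte precursors, microglia and endothelial cells summed to 25.6 to 63.2 TPM, of which Mbp alone reached 40.1 TPM, and 8 of the 18 had group means under 1 TPM throughout. ERCC spike-in transcripts were added as 1 µl, 10 µl or a volume set by the cell number, and in POMC neurons the 10 µl libraries were all FD and the cell-number libraries all fed.

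These promoters are printed because they belong to the receptors with the largest increases in FD AGRP neurons that have a promoter entry, namely the Gs receptors Gpr3 and Gpr6 and the adhesion receptor Gpr64. They are RefSeq sequences of build GRCm38.p6, 250 bases before to 50 bases after a gene start, written 5′ to 3′ on the gene's strand, at chr4:133212487-133212786 (minus strand), chr10:41072241-41072540 (minus strand) and chrX:160390440-160390739 (plus strand). Capitals mark TGACG or its reverse complement CGTCA, the half-site of the cAMP response element bound by CREB.
Gpr3: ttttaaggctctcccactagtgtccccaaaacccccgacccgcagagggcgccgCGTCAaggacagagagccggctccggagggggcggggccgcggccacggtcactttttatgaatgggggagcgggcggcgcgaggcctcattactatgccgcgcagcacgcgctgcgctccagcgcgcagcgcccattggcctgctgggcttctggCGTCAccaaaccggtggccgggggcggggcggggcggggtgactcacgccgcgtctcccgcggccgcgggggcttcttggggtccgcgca
Gpr6: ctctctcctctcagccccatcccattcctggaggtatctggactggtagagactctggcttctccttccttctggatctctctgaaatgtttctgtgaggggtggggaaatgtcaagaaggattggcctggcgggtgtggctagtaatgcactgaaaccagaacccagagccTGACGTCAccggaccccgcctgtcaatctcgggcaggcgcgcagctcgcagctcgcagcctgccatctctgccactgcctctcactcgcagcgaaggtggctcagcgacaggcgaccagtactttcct
Gpr64: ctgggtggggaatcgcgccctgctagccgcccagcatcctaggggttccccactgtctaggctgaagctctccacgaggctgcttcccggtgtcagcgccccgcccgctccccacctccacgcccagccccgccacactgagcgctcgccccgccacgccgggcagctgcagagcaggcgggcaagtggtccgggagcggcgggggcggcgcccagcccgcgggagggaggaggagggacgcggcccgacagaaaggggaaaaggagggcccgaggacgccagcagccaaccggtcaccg

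The Gpr6 promoter holds the palindromic cAMP response element TGACGTCA, in which both half-sites overlap, and Gpr3 holds 2 separate half-sites. The full element was present in 1.79% of the 32851 promoters of the same length and the half-site in 20.8%, searched on both strands. Promoters were on hand for 62 of the 86 members (80 promoters, since some genes have several starts), and 1 of these held the full element, that of Gpr6, while 23 (28.8%) held the half-site. Gpr83 held 1 half-site and a TATA box (TATAAA, 13.6% of all promoters), whereas no half-site was found in the windows of Gpr158 and Gpr64. Other searches covered the AP-1 site TGANTCA (7.81% of all promoters), found in Gpr3, the GC box GGGCGG (35.7%), found in Gpr3, Gpr64, Gpr158 and Gpr179, and the E-box CACGTG (7.15%), found in none of the 8 windows of members that changed in FD AGRP neurons. The motifs were chosen after the expression values were known, and a match describes letters and not binding.

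By the criterion of a mean over 20 TPM in fed or FD mice, 27 of the 86 members were expressed in AGRP neurons (31.4%, against 23.8% of all genes) and 19 in POMC neurons (22.1%, against 23.5%). In all, 28 members met the criterion in either cell type, 18 in both and 12 in every one of the 4 groups. Gpr101 was the only member over the criterion in POMC but not in AGRP neurons, and the 9 members over it in AGRP neurons alone were Gpr3, Gpr6, Gpr64, Gpr83, Gpr125, Gpr126, Gpr155, Gpr162 and Gpr180, a list read off the criterion with no test of the difference. At the other end, 22 members had means under 1 TPM in all 4 groups, 22 had a highest mean of 1 to 5 TPM and 14 one of 5 to 20 TPM. Gpr33, Gpr128 and Gpr132 were among 4 members with 0 counts in every library, and 7 members never exceeded 3 counts, a depth at which a low level is not detectable. The filter on low counts left 62 members to test, and the highest group mean among the 24 untested was 1.24 TPM.

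**Figure D1:**
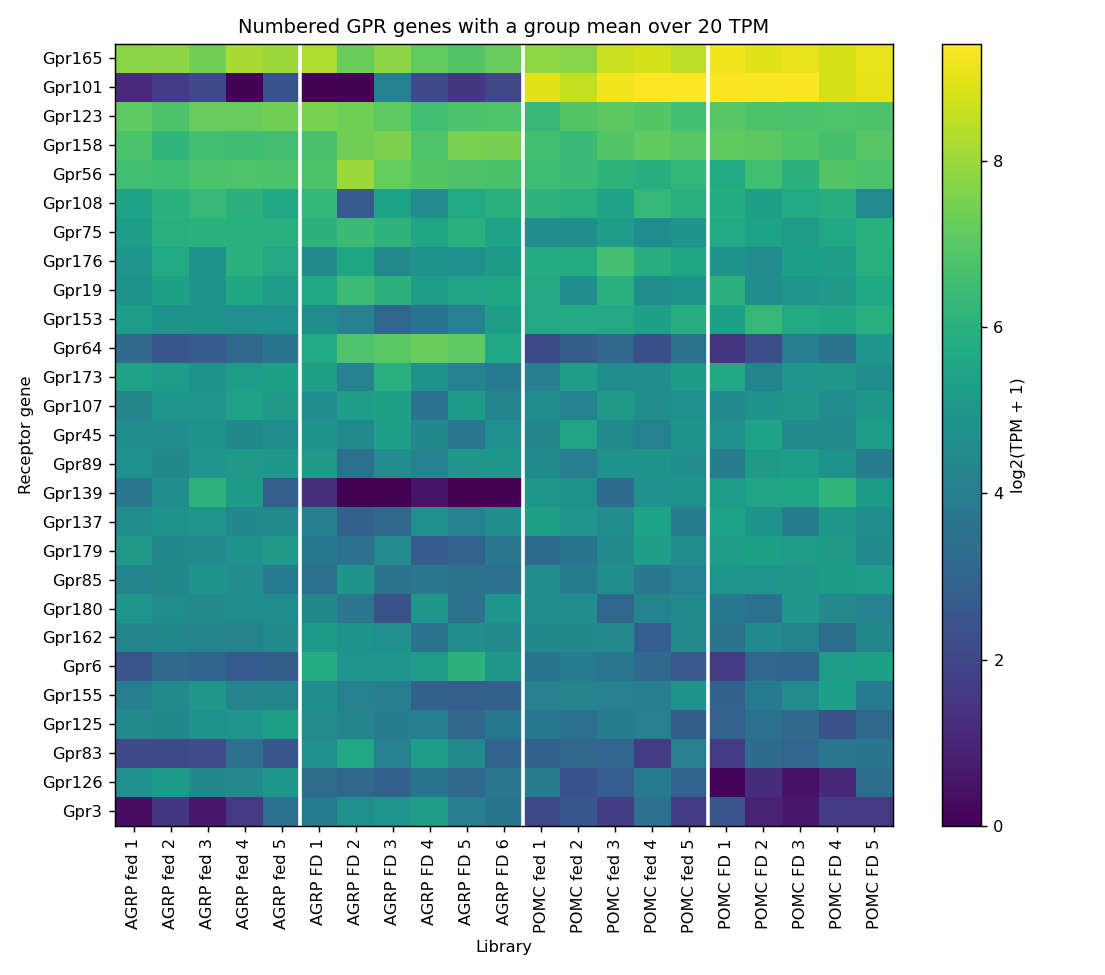
Level of 27 of the 28 members with a group mean over 20 TPM (rows, ordered by their mean) in each of the 21 libraries (columns), as log2(TPM + 1) in colour. Gpr101 is bright only in the POMC columns, Gpr64, Gpr6, Gpr83 and Gpr3 are brighter in the AGRP FD columns than in the AGRP fed columns, and Gpr139 is dark in the AGRP FD columns.

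The receptor groups differed in how much of them was present. Of the 7 atypical members, multi-pass proteins such as Gpr107, Gpr108 and Gpr137 that reside mostly in the Golgi and other internal membranes, 6 had a group mean over 20 TPM. Of the 3 SREB members, highly conserved brain orphans, Gpr85 and Gpr173 did so, as did 5 of the 17 adhesion receptors. Among the 10 receptors for lipids or metabolites none did, and Gpr34 and the oxysterol receptor Gpr183, both known from microglia, had group means of at most 1.24 and 1.76 TPM. Gpr17, a receptor of the oligodendrocyte lineage, lay between 0 and 0.2 TPM in all 21 libraries and exceeded the floor in 3 of them, with at most 9 counts, beside oligodendrocyte markers that summed to 16.0 to 47.8 TPM.

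Gpr165, Gpr101, Gpr123, Gpr158 and Gpr56 had the highest levels over the 4 groups, and after them came Gpr108, Gpr75, Gpr176, Gpr19 and Gpr153 at means between 38.2 and 52.4 TPM over the groups. Gpr123 (Adgra1), an adhesion receptor of neurons, was one of the steadiest, at 142 ± 22.4 TPM (SD, n = 5) in fed AGRP, 131 ± 34.2 TPM (n = 6) in FD AGRP, 108 ± 21.6 TPM (n = 5) in fed POMC and 113 ± 6.59 TPM (n = 5) in FD POMC neurons, and it passed no test. Gpr56 (Adgrg1), whose reported binding partners transglutaminase 2 (Tgm2) and collagen III (Col3a1) had means of at most 0.475 TPM in every group, stood at 102 ± 9.97, 139.8 ± 57.6, 74.3 ± 12.9 and 87.8 ± 27.8 TPM in the same order. Between FD and fed AGRP neurons its libraries overlapped in TPM and were apart in scaled counts, and the change missed the threshold (log2 fold change 0.73 ± 0.24, SE, q = 0.0514). Here and below, q is the Benjamini-Hochberg adjusted p of edgeR's quasi-likelihood test over 16513 genes, and log2 fold changes are given with their SE.

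Food deprivation changed 13 of the 62 tested members in AGRP neurons (q under 0.05), 6 higher and 7 lower. Among all genes tested, 5.87% were higher and 4.43% lower in this comparison, against 9.68% and 11.3% of the members. In scaled counts, the scale of all counts of overlap below, the libraries of the 2 groups did not overlap for 10 members, where 7.65% of all genes showed no overlap, and 7 members met the stricter criteria for differentially expressed genes (q under 0.05, absolute log2 fold change over 1 and mean CPM over 20 in at least 1 group), which 4.46% of all genes met. The median change over the tested members was -0.17 and over all genes -0.02 on the log2 scale. In these pooled cells a lower level can come from fewer cells with the transcript or from less of it per cell, and these cannot be told apart.

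**Figure D2:**
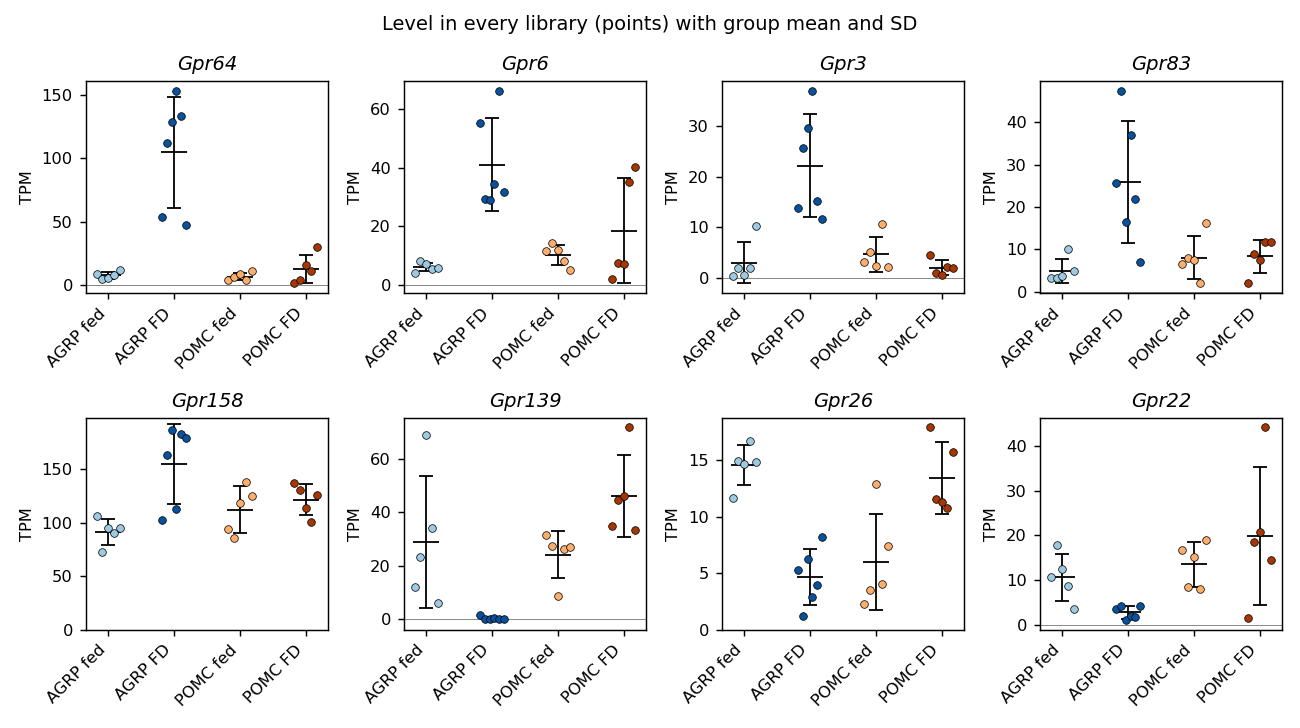
TPM of 8 members that changed in FD AGRP neurons, 1 point per library, with the group mean and SD as bars, for fed and FD AGRP and POMC neurons (5 or 6 libraries per group, linear axes). For Gpr64, Gpr6, Gpr3, Gpr139 and Gpr26 the fed and FD AGRP points do not overlap, and the 2 high POMC FD points of Gpr6 are libraries 4 and 5.

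Gpr64 (Adgrg2), an adhesion receptor known from the epididymis, had the largest increase among members with counts in both groups. The 5 fed AGRP libraries held 8.25, 4.85, 5.59, 7.83 and 11.6 TPM, and the 6 FD libraries held 47.5 to 154 TPM with a median of 120.4 TPM. Every FD library was thus above every fed one, and the fit gave a 16.9-fold increase (log2 4.08 ± 0.52, q = 3.85e-06). In POMC neurons Gpr64 stood at 6.47 ± 3.02 TPM (SD, n = 5) in fed and 12.5 ± 11.4 TPM (n = 5) in FD mice, with overlapping libraries (q = 0.493).

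The group of constitutively active Gs receptors was taken as Gpr3, Gpr6 and Gpr12, which were low in fed AGRP neurons, and 2 of the 3 rose. Other members outside this group share the trait. Gpr64, which the authors also name as constitutively active, rose, while Gpr26, which couples to Gs without a ligand, fell. Gpr6 was at 4.27, 8.11, 7.22, 5.34 and 5.88 TPM in the fed libraries and at 29.1 to 66.3 TPM (median 33.1 TPM) in the FD libraries, a 7.78-fold increase (log2 2.96 ± 0.59, q = 0.000974) with no overlap. Gpr3 was at 0.255, 1.84, 0.577, 1.99 and 10.2 TPM in the fed libraries and at 11.6 to 37.1 TPM (median 20.4 TPM) in the FD libraries, a 9.08-fold increase (log2 3.18 ± 0.79, q = 0.00751) that was 4.51 on the log2 scale without fed 5. The FD values lay above all fed values for Gpr3 as well, although fed 5, at 10.2 TPM, came near the lowest FD library. Gpr12, the third of these paralogs, had the opposite sign at a low level, 4.03 ± 2.44 TPM (SD, n = 5) in fed and 0.760 ± 1.28 TPM (n = 6) in FD AGRP neurons (q = 0.141). Summed over the 3 genes, the level was 13.2 ± 3.86 TPM in fed and 64.0 ± 13.8 TPM in FD AGRP neurons.

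Gpr83, reported as a receptor for the PEN peptide cut from proSAAS, rose 6.38-fold (log2 2.67 ± 0.55, q = 0.00139). Its fed libraries were at 3.28, 3.31, 3.63, 10.0 and 4.83 TPM and its FD libraries at 6.99 to 47.5 TPM (median 23.8 TPM), and the lowest FD library (FD 6) lay below the highest fed one (fed 4). Pcsk1n, which encodes proSAAS, was among the abundant genes of all 4 groups at means of 257 to 509.9 TPM and passed no test between FD and fed mice.

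Gpr158, a class C orphan that recruits the regulator RGS7 with its subunit Gβ5 to the membrane and binds the proteoglycan glypican 4, started from a high level. It was at 106, 72.6, 94.5, 90.1 and 94.8 TPM in fed AGRP libraries and at 102 to 186 TPM (median 171 TPM) in FD libraries, a 2.01-fold increase of the scaled counts (log2 1.01 ± 0.16, q = 7.33e-05). The scaled counts did not overlap, while in TPM the highest fed library lay above the lowest FD one. Under scaling by spike-in counts per µl added, which moved the median of all genes to -0.93, the value of Gpr158 turned to -0.05. This scaling leaves out the number of sorted cells, 44 to 214 per library. Spike-in counts also did not follow the volume, with 54433 at 1 µl in AGRP fed 1 and 2755357 at 10 µl in AGRP fed 2. The rise of Gpr158 thus holds relative to the other genes and was not seen against the spike-ins. Its change per cell was not tested. Among its partners, Rgs7bp, which anchors RGS7 in its own right, fell from 23.2 ± 5.00 TPM (SD, n = 5) to 5.18 ± 3.38 TPM (n = 6) (log2 -1.93 ± 0.42, q = 0.00225), whereas Rgs7 (111 ± 31.2 and 107 ± 56.4 TPM) and Gnb5 (91.2 ± 32.4 and 105 ± 16.8 TPM) passed no test.

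The last of the 6 increases was no broad one. Gpr149 was at 0 counts in 10 of the 11 AGRP libraries and at 61 counts (1.12 TPM) in AGRP FD 4, so its q of 0.0354 stood on a single library.

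Gpr139, a receptor activated by tryptophan and phenylalanine, had the steepest decrease among members over 20 TPM. It was at 12.2, 23.2, 69.0, 34.1 and 6.28 TPM in the fed AGRP libraries, and in FD libraries it was at 0 counts in 4 of 6, at 0.448 TPM in FD 4 and at 1.49 TPM in FD 1. The groups did not overlap (fitted log2 -6.17 ± 0.89, q = 1.67e-05). The FD mean lay under the floor of 3 counts per library averaged over the group, and against that floor Gpr139 was at least 51.5-fold lower. Without fed 3 this was at least 34.1-fold and the fitted log2 value -5.58, and without FD 1 the fitted value was -7.25. With Gpr84, this was one of 2 member calls in AGRP neurons that were kept under spike-in scaling (log2 -6.02, q = 0.00903). In POMC neurons Gpr139 was at 24.2 ± 8.83 TPM (SD, n = 5) in fed and 46.2 ± 15.4 TPM (n = 5) in FD mice. Every FD library, the lowest at 33.6 TPM, lay above every fed one, the highest at 31.4 TPM, while the scaled counts overlapped and the test was not passed (log2 0.78 ± 0.73, q = 0.742).

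Gpr26, a brain orphan that couples to Gs without a ligand, was lower in every FD library. Fed AGRP libraries held 11.7, 14.9, 14.7, 16.7 and 14.9 TPM and FD libraries 1.24 to 8.16 TPM (median 4.61 TPM), with no overlap and a 2.73-fold decrease (log2 -1.45 ± 0.36, q = 0.00808). The gene span overlaps that of Fgfr2, and reads were counted without strand, so reads shared by both genes are uncertain. The same limit applies to all 30 members whose span overlaps another, among them Gpr22 (Cog5), Gpr64 (Gm15241) and Gpr158 (Gm13327 and Gm24886).

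Gpr179, the class C relative of Gpr158 known from retinal bipolar cells, fell 1.95-fold (log2 -0.96 ± 0.29, q = 0.0313), from 27.0 ± 6.35 TPM (SD, n = 5) to 11.8 ± 5.93 TPM (n = 6). Gpr22, an orphan of brain and heart, was at 10.6 ± 5.21 and 2.76 ± 1.36 TPM (log2 -1.72 ± 0.53, q = 0.0322). Gpr133 (Adgrd1), an adhesion receptor that couples to Gs, was at 6.40 ± 5.01 and 0.738 ± 0.794 TPM (log2 -2.94 ± 0.87, q = 0.0257). The libraries of these 3 genes overlapped between fed and FD mice.

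Gpr84, a receptor for medium-chain fatty acids known from microglia, was at 1.41, 0, 1.96, 5.67 and 2.76 TPM in fed AGRP libraries and at or under 1 count in all FD libraries. Against the floor of 3 counts per library, averaged over the FD libraries, this was at least 6.21-fold lower (q = 0.0423), and at least 4.04-fold without fed 4. The 4 microglial markers Cx3cr1, Aif1, C1qa and Csf1r summed to 0.074 to 12.5 TPM in fed and 0.384 to 3.28 TPM in FD AGRP libraries, and their part in the Gpr84 result was not tested. None of the 2 tested microglial markers passed the test in AGRP neurons, and of all 11 tested non-neuronal markers 1 did, the astrocyte gene Aldh1l1 (at least 14.3-fold higher, q = 0.0284). Among all genes tested, 5.87% were higher in this comparison.

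Each of the 13 calls was examined without each of the 11 AGRP libraries in turn. Those of Gpr64, Gpr6, Gpr3, Gpr83, Gpr158, Gpr139 and Gpr26 were kept in all 11 fits. Gpr133 lost its call without fed 1, fed 4, FD 3, FD 4 or FD 5, Gpr179 without fed 1, fed 4, fed 5, FD 2, FD 4 or FD 5, and Gpr22 without fed 1, fed 2, fed 3, FD 3, FD 4 or FD 5. Gpr84 kept its call in 2 of the 11 fits, those without fed 2 or FD 6, and Gpr149 in 5, those without an FD library other than FD 4. The highest q in these fits was 0.0986 for Gpr133, 0.0792 for Gpr179, 0.116 for Gpr22, 0.0915 for Gpr84 and 1.00 for Gpr149. By limma-voom the calls of Gpr22 (q = 0.149), Gpr84 (q = 0.0673) and Gpr149 (q = 0.648) were lost, and with the age cohort as a factor those of Gpr22 (q = 0.0644) and Gpr84 (q = 0.0579). With the AGRP groups alone, Gpr84 and Gpr149 did not pass the count filter, which they passed with the POMC libraries, and were not tested. Under spike-in scaling the calls of Gpr139 and Gpr84 alone were kept, and those of Gpr64, Gpr6, Gpr3, Gpr83, Gpr158 and Gpr26 were among the lost. The count of called members was 8 without fed 1, 8 without fed 4, 7 without FD 4 and between 9 and 14 without any other library. Within the 3 spike-in sets of the AGRP libraries, the means of 12 of the 13 members moved in the called direction in 3 of 3 sets, and Gpr149 did so in 1.

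In POMC neurons no member passed the test between FD and fed mice, with 0.182% of all genes higher, 0.194% lower and 0.266% meeting the stricter criteria. The count was also 0 by limma-voom and DESeq2. An unadjusted edgeR p under 0.05 was found for 11 of the 62 members (7 higher, 4 lower), against 12.2% of all genes tested. The lowest q was 0.162, that of Gpr126. In scaled counts the libraries of every member overlapped, where 2.35% of all genes showed no overlap. In TPM those of Gpr139 and Gpr85 were apart, both higher in FD mice. The share of all genes apart in TPM was not computed, so this is no result about the members. Among abundant members, Gpr165 was at 327 ± 106 TPM (SD, n = 5) in fed and 530.4 ± 54.3 TPM (n = 5) in FD mice (log2 0.61 ± 0.20, q = 0.163) and Gpr75 at 26.9 ± 5.22 and 47.9 ± 10.3 TPM (log2 0.72 ± 0.25, q = 0.192). The Gpr6 libraries split within the FD group, with FD 1, 2 and 3 at 2.08, 7.39 and 7.25 TPM and FD 4 and 5, the libraries with 10 µl of spike-ins, at 35.3 and 40.4 TPM, against 5.26 to 14.2 TPM in fed mice. The difference between FD and fed Gpr6 was 0.68 ± 0.56 on the log2 scale (q = 0.686), and without FD 4 and 5 it was -1.03 (q = 0.470). Without these libraries 1 member was called, Gpr126 (log2 -4.05, q = 0.00202), and likewise without FD 5 alone (log2 -3.83, q = 0.000554), while Gpr26 was called higher without POMC fed 3 (log2 1.55, q = 0.0479).

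**Figure D3:**
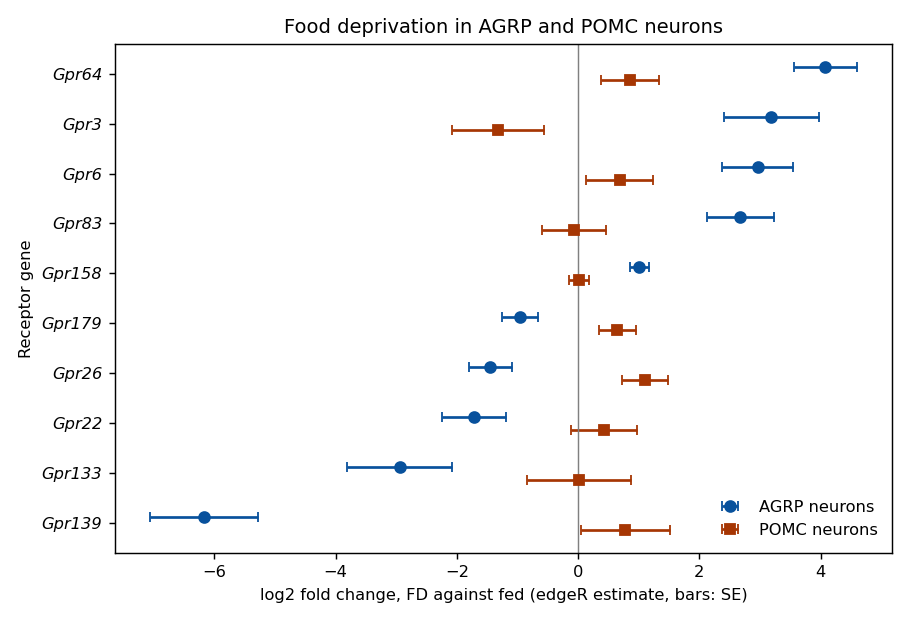
Log2 fold change of FD against fed mice with SE for 10 members called in AGRP neurons (circles) and for the same members in POMC neurons (squares), from 1 edgeR fit of all 21 libraries. Among the other calls, Gpr149 and Gpr84 are left out because 1 of their AGRP groups lay at the floor, and in POMC neurons the changes lie between -1.32 (Gpr3) and 1.11 (Gpr26).

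The difference between the responses was tested by the interaction, the change in AGRP neurons less the change in POMC neurons. It was called for 8 of the 62 members, 4 with a higher and 4 with a lower change in AGRP neurons, where 4.08% of all genes were higher, 2.63% lower and 4.55% met the stricter criteria. The higher ones were Gpr3 (log2 4.50 ± 1.08, q = 0.00978), Gpr64 (3.22 ± 0.67, q = 0.00302), Gpr83 (2.74 ± 0.75, q = 0.0229) and Gpr158 (1.00 ± 0.23, q = 0.00672). Among the lower ones, Gpr139 differed by -6.95 ± 1.15 (q = 0.000184), Gpr26 by -2.55 ± 0.52 (q = 0.00242) and Gpr179 by -1.61 ± 0.42 (q = 0.0179). Without POMC fed 5, Gpr83 lost its call (q = 0.0518), as it did by limma-voom. Without AGRP fed 5 the interaction of Gpr3 was 5.83, without POMC FD 5 that of Gpr64 was 3.85, and that of Gpr139 was -6.36 without AGRP fed 3 and -8.03 without AGRP FD 1, all of them still called.

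Gpr6 was not among the interaction calls (log2 2.28 ± 0.78, q = 0.0776), with the 2 high POMC FD libraries included. It was called without both of them (3.99, q = 0.00141), with the spike-in set as a factor (3.19, q = 0.0185), by limma-voom (3.22, q = 0.0223) and by DESeq2 (2.24, q = 0.0364). It was not called with RLE scaling (2.24, q = 0.0844), without the count filter (2.27, q = 0.0819), with the age cohort as a factor (2.30, q = 0.0779), with a replicate block (2.65, q = 0.0784) or under spike-in scaling (3.38, q = 0.749), and of the 21 fits without a single library 1 called it, that without POMC FD 5 (2.80, q = 0.0311).

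AGRP and POMC neurons of fed mice differed in 6 members, 2 higher and 4 lower in AGRP neurons. Of all genes, 3.33% were higher, 4.24% lower and 4.02% met the stricter criteria, and 2 members, Gpr101 and Gpr153, met these. Libraries did not overlap for 7 members, where 8.93% of all genes showed no overlap.

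Gpr101, an orphan that couples to Gs and is known from pituitary gigantism, set the cell types apart most. Fed POMC libraries held 495, 369, 584, 677 and 679.8 TPM and fed AGRP libraries 1.21, 2.19, 3.21, 0.031 and 4.13 TPM. The difference was 293-fold in fed mice (log2 -8.20 ± 0.92, q = 1.16e-07) and 125-fold in FD mice (log2 -6.97 ± 0.79, q = 9.55e-08), with POMC FD libraries at 445 to 662 TPM and AGRP FD libraries at 0 to 16.7 TPM (log2 -8.21 without AGRP FD 3, the highest of them). It was lower in AGRP neurons under every scaling, including the spike-ins (-6.95 in fed and -5.39 in FD mice).

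Gpr165, an orphan of unknown ligand, came next in POMC neurons but was abundant in both types. It was at 210.1, 218, 169.6, 289 and 254 TPM in fed AGRP and at 226, 209, 392, 452 and 359 TPM in fed POMC libraries, which overlapped (log2 -0.68 ± 0.20, q = 0.0292). In FD mice the ranges were 119 to 312 TPM and 451 to 594 TPM without overlap (log2 -1.39 ± 0.19, q = 1.96e-06), and under spike-in scaling the sign turned to 0.49 in fed and 0.04 in FD mice. Together Gpr101 and Gpr165 made up 46.5% ± 5.58 (SD, n = 5) of the summed TPM of all members in fed POMC and 50.3% ± 4.77 (n = 5) in FD POMC neurons, against 17.3% ± 2.62 (n = 5) and 13.8% ± 4.20 (n = 6) in AGRP neurons. The other 84 members summed to means of 995 to 1146 TPM in the 4 groups, with no test made.

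**Figure D4:**
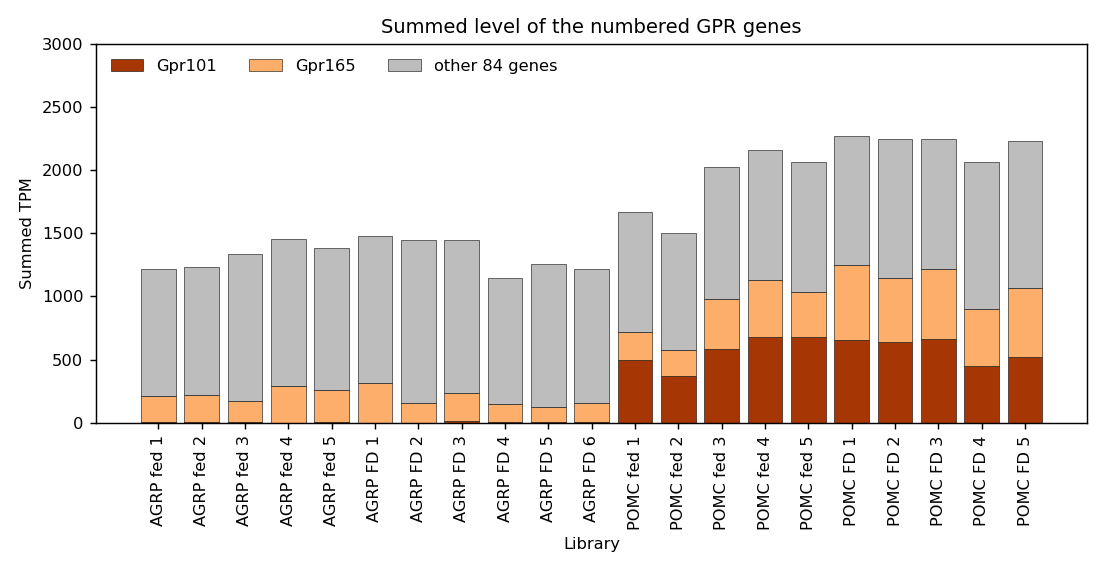
Summed TPM of the 86 members in each library, split into Gpr101, Gpr165 and the other 84 genes. The POMC bars reach 1499 to 2272 TPM and the AGRP bars 1143 to 1481 TPM, and Gpr101 is at most 16.7 TPM in the AGRP bars.

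Gpr149, an orphan known from oocytes, was near 0 in AGRP neurons. Fed POMC libraries were at 1.72, 2.39, 7.29, 21.6 and 4.50 TPM, and all fed AGRP libraries were at 0 counts, which makes it at least 62.2-fold lower in AGRP neurons against the floor of 3 counts per library (q = 0.000400), and at least 33.5-fold lower without POMC fed 4. In FD mice it was at 1.83 to 10.4 TPM in POMC neurons and lower in AGRP neurons (log2 -4.26 ± 1.22, q = 0.0140). Gpr149 passed the count filter through the POMC libraries, where it is high, so these q-values are no independent support for the difference. Without AGRP FD 4, the 1 AGRP library with counts, it was at least 35.7-fold lower, and the call was lost with the age cohort as a factor (q = 0.111) and without POMC FD 4 and 5 together (q = 0.0662). Gpr153 was at 28.7 ± 4.92 TPM (SD, n = 5) in AGRP and 50.2 ± 5.93 TPM (n = 5) in POMC neurons of fed mice (2.01-fold lower, q = 0.0255) and differed in FD mice too (log2 -1.36 ± 0.27, q = 0.000442). Gpr75 (56.6 ± 10.96 and 26.9 ± 5.22 TPM, log2 0.90 ± 0.25, q = 0.0195) was higher in fed AGRP neurons. The cell types differed in age cohort, the youngest mice being all AGRP, and in spike-in sets. With the age cohort as a factor the calls of Gpr75 (q = 0.0714) and Gpr153 (q = 0.0881) were lost, and with the spike-in set as a factor those of Gpr75 (q = 0.0513) and Gpr165 (q = 0.0640). Leaving out single libraries, calls were lost for Gpr153 without AGRP fed 3, 4 or 5 or POMC fed 1 or 2 (highest q 0.0654), for Gpr165 without AGRP fed 1, 2 or 3 or POMC fed 3 or 4 (0.101) and for Gpr75 without POMC fed 4 (0.0509).

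In FD mice 21 members differed between AGRP and POMC neurons, 7 higher and 14 lower in AGRP neurons. The shares of all genes were 9.28% higher, 9.27% lower and 8.11% by the stricter criteria, which 11 members met. Libraries of 11 members did not overlap, where 11.4% of all genes showed no overlap. This comparison shares its AGRP FD libraries with the comparison of FD against fed AGRP neurons, so the values are given side by side and not as separate evidence.

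Receptors higher in FD AGRP than in FD POMC neurons included Gpr3 (log2 3.70 ± 0.81, q = 0.00115), Gpr64 (3.29 ± 0.50, q = 1.16e-05), Gpr83 (1.88 ± 0.53, q = 0.0112), Gpr56 (0.88 ± 0.24, q = 0.00986) and Gpr158 (0.53 ± 0.16, q = 0.0171). In fed mice the same differences were -0.80, 0.07, -0.86, 0.24 and -0.47, none of them called. Without AGRP FD 2, at 254 TPM the highest Gpr56 library, the call of Gpr56 was lost (q = 0.0529), and without POMC FD 4 that of Gpr158 (q = 0.0566). Lower in FD AGRP neurons, beside Gpr101, Gpr149, Gpr153 and Gpr165, were Gpr139 (log2 -6.91 ± 0.91, q = 9.59e-07), Gpr12 (-3.80 ± 1.00, q = 0.00650), Gpr22 (-2.66 ± 0.54, q = 0.000491), Gpr133 (-2.55 ± 0.86, q = 0.0349), Gpr26 (-1.40 ± 0.36, q = 0.00552) and Gpr179 (-1.34 ± 0.29, q = 0.00115). With the age cohort as a factor the calls of Gpr83 (q = 0.0569), Gpr56 (q = 0.0879) and Gpr133 (q = 0.114) were lost, and with the spike-in set as a factor those of Gpr56 (q = 0.0705) and Gpr133 (q = 0.0878). By limma-voom (q = 0.0520) and with the compared groups alone (q = 0.101) the call of Gpr133 was lost too. Against the floor Gpr139 was at least 86.2-fold lower, with fitted log2 -7.99 without AGRP FD 1, where Gpr12 was at -5.21, and Gpr64 was at 3.92 without POMC FD 5. The sign of Gpr26, Gpr165 and Gpr179 turned under spike-in scaling, to values of 0.01, 0.04 and 0.03, where the median of all genes was 1.17. Gpr133 lost its call without AGRP FD 3, 4 or 5 or POMC FD 3 (highest q 0.172). The remaining 5, named after their values were seen, were Gpr125 and Gpr126, higher, and Gpr1, Gpr85 and Gpr98, lower, with absolute log2 differences of 0.98 to 3.11. Without POMC FD 4 and 5 together, 19 members were called, 16 of the 21 among them.

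**Figure D5:**
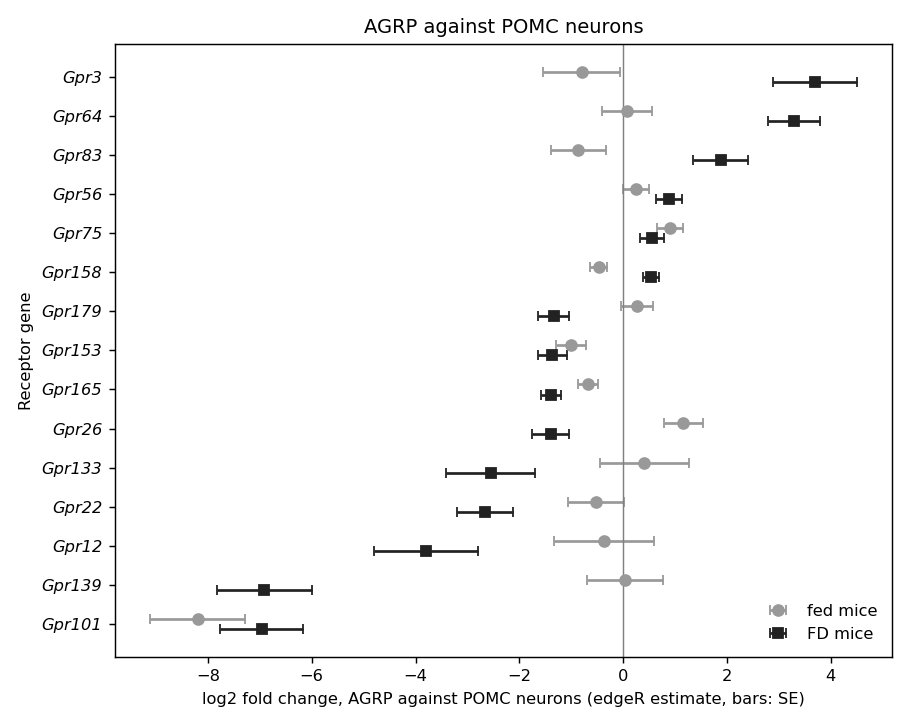
Log2 fold change of AGRP against POMC neurons with SE in fed mice (grey circles) and FD mice (black squares), for 15 named members called in either comparison and with at least 1 library over the floor in every group. Gpr101 lies at -8.20 and -6.97, whereas Gpr3, Gpr64 and Gpr139 lie within 1 log2 unit of 0 in fed mice and beyond 2 in FD mice.

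By receptor group, the calls in FD against fed AGRP neurons are given beside 5.87% of all genes higher and 4.43% lower. With few tested members in most groups, these counts are no result about a group. The constitutively active Gs group (Gpr3, Gpr6 and Gpr12) had 2 higher of 3 tested. The class C receptors had 1 higher and 1 lower of 3, and the adhesion receptors 1 higher and 1 lower of 11. The receptors for peptides or amino acids had 1 higher and 1 lower of 4, the lipid or metabolite receptors 1 lower of 5 and the other rhodopsin-like orphans 1 higher and 2 lower of 25. None of the 3 SREB and 6 atypical members tested was called. In POMC neurons no group had a call, where 0.182% of all genes were higher and 0.194% lower.

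Relatives whose symbols fall outside the numbered pattern were examined as a fixed list. Of the 9 found, 5 were tested, and 1 was called in FD against fed AGRP neurons, where 5.87% of all genes were higher. This was Gprc5a, a class C orphan known from lung and as a retinoic acid response gene. It had 12 to 199 counts in the 6 FD AGRP libraries and 0 counts in all 15 others, with a mean of 5.17 TPM in FD AGRP neurons. It was at least 24.0-fold higher than in fed AGRP neurons (q = 0.00359) and at least 20.1-fold higher than in FD POMC neurons (q = 0.00190). It passed the count filter through the FD AGRP libraries alone, so these q-values are no independent support for the difference. Its interaction with cell type was not called, with 0 counts in both POMC groups. Gpr137c, at means of 45.3 to 60.7 TPM, was the most abundant relative and passed no test.

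Of the 14 proposed ligands, ligand makers and binding partners, 10 were tested. In FD against fed mice, Rgs7bp in AGRP neurons was the 1 call, where 4.43% of all genes were lower. The interaction of Rgs7bp with cell type was called too (log2 -2.34 ± 0.60, q = 0.0146). Gpc4, the glypican bound by Gpr158, was higher in AGRP than in POMC neurons in fed mice, at 375 ± 67.9 and 87.1 ± 31.1 TPM (SD, n = 5 each, log2 1.90 ± 0.26, q = 4.68e-06), and in FD mice (log2 2.64 ± 0.26, q = 7.44e-09). Gnb5, the obligate partner of RGS7, was higher in AGRP neurons of FD mice (log2 1.58 ± 0.39, q = 0.00394), as was Tulp3, which carries Gpr161 into cilia (log2 1.44 ± 0.45, q = 0.0229), whereas Rgs7bp was lower (log2 -1.40 ± 0.41, q = 0.0150). Chemerin (Rarres2), the ligand of Gpr1, stayed at means of 0 to 1.94 TPM.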

How the data were processed

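RNA-Seq counts per gene and TPM were the files used. The deposited counts were made by the authors, who trimmed reads with cutadapt 1.7.1 and detected abundant sequences, such as ribosomal RNA, with Bowtie2 2.1.0. They aligned the remaining reads with STAR 2.4.0i to mm10 and counted them with HTSeq 0.6.1p1 without strand. The TPM values were deposited by the authors beside the counts. RNA was amplified and carries no molecular identifiers. Each library is 1 pool of sorted cells from 1 mouse. The p-values thus measure the spread between libraries, in which differences between mice and technical differences cannot be told apart.

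The counts of all 21 libraries entered 1 edgeR 4.0.16 quasi-likelihood fit with TMM scaling and 4 groups (R 4.3.3), over 16513 genes with CPM over 1 in at least 3 libraries, with Benjamini-Hochberg q over all of them. Levels are TPM. Alternatives were limma-voom (limma 3.58.1), DESeq2 1.42.0, RLE scaling, no count filter, the compared groups alone, blocks for replicate number, spike-in set or age cohort, spike-in scaling, the stricter criteria and leaving out each library. The spike-in set of AGRP FD 2 fits both the 1 µl and the cell-number description and was taken as the latter. Tested on simulated data for FD against fed AGRP neurons (16513 genes, 200 changed), edgeR recovered 16 of 67 genes changed 2-fold, 34 of 67 changed 4-fold and 41 of 66 changed 8-fold, with 4 false calls.

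The members and lists were chosen with earlier results of these data known. Named are Gpr139 and Gpr158, every member called between FD and fed mice or in the interaction, up to 10 called members without overlap with the largest differences between cell types in fed and in FD mice, the 10 highest by mean TPM, and Gpr3, Gpr6, Gpr17, Gpr64 and Gpr83. Leaving out POMC FD 4 and 5 together, and the 1 µl spike-in set alone, were chosen after seeing the data. Some members are counted in the totals but not reported here by name.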

Additional observations from a re-analysis of the deposited data

Results flagged for a closer look

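In 7 of the 72 groups of 5 or 6 libraries with a mean of at least 5 TPM, 1 library stood apart from the others by the gap to its nearest neighbour, and chance gives about 1 in 20. In POMC fed 3, Gpr139 was at 8.83 TPM (nearest library 26.2 TPM) and Gpr176 at 97.1 TPM (nearest 56.9 TPM). In POMC fed 4, Gpr149 was at 21.6 TPM (nearest 7.29 TPM). In AGRP fed 1, Gpr153 was at 37.4 TPM (nearest 27.4 TPM) and Gpr75 at 37.1 TPM (nearest 59.8 TPM). Gpr83 was at 10.0 TPM in AGRP fed 4 (nearest 4.83 TPM), and Gpr56 at 254 TPM in AGRP FD 2 (nearest 143 TPM).

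The change with deprivation in AGRP neurons less that in POMC neurons passed the interaction test for 8 members. On the log2 scale it was, among others, -6.95 for Gpr139, 1.00 for Gpr158, -1.61 for Gpr179, -2.55 for Gpr26, 4.50 for Gpr3, 3.22 for Gpr64 and 2.74 for Gpr83.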

How the results depend on the processing

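Under spike-in scaling, 2 members were called for FD against fed AGRP neurons (13 as reported), 3 between the cell types of fed mice (6), 6 between those of FD mice (21) and 1 for the interaction (8). That scaling moved the median of all genes to -0.93, 0.82, 1.17 and 0.36 in these comparisons and to -1.28 for FD against fed POMC neurons, and it reversed Gpr158 for FD against fed AGRP neurons (-0.0465), Gpr165 between cell types in fed (0.49) and FD mice (0.0445), and Gpr179 (0.0332) and Gpr26 (0.0092) in FD mice; the cause was not tested. The stricter criteria, which hold fewer genes by construction, left 7, 2, 11 and 5 members in the same order, and limma-voom called 10 in fed mice, the cause of which was not tested. Leaving out 1 library gave 7 to 14 calls in AGRP neurons, 0 to 1 in POMC neurons, 4 to 5 between fed cell types, 17 to 22 between FD cell types and 6 to 13 for the interaction (13 without AGRP FD 1), with fewer samples in each fit. Without POMC FD 4 and 5 together, 1 member was called in POMC neurons. Expressed members numbered 17 in AGRP neurons where every library had to exceed 20 TPM. At means over 10 TPM they numbered 32 in AGRP and 31 in POMC neurons (31.1% and 30.6% of all genes). At means over 5 TPM they numbered 37 and 39 (37.9% and 37.1% of all genes). The larger AGRP count at 20 TPM thus depended on the threshold. Same-numbered libraries came from different mice and their deviations did not go together (r from -0.19 to 0.12), so the numbers pair nothing. With the replicate number as a block, 9, 0, 7, 18 and 9 members were called in AGRP neurons, in POMC neurons, between fed and between FD cell types and for the interaction. Of the 43 named calls, 43 were kept by DESeq2, 43 with RLE scaling, 43 without the count filter, 37 by limma-voom, 39 with a block for the spike-in set and 35 with one for age. Spike-in scaling kept 11 of them, with 27 lost and 5 reversed. At this depth, members under 3 counts could not be compared.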
